A study of Mus musculus with 6 samples.

Results

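The numbered Zfp genes are mouse zinc finger genes whose symbol is Zfp followed by digits only. They were taken from the RNA-seq of CD4 T cells by their symbol and by a mean value of at least 3 over the 6 samples, on the deposited log2(normalized CPM + 1) scale, where CPM is a read count scaled to the total of its library. Of 337 such symbols listed, 21 were at 0 in every library, 244 reached the mean of 1 needed for testing, and 124 reached the mean of 3 and are the members described here. All 124 were among the 11279 genes tested. They were chosen by their mean level over both groups, so their levels are a description. The group mean lay above 3 in both groups for 119 members, in WT alone for 3 and in AMPK KO alone for 2.

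Most of these genes encode proteins built of C2H2 zinc fingers, short modules in which 2 cysteines and 2 histidines hold a zinc ion and the helix between them reads a few bases of DNA. Many also carry a KRAB box, a repressor domain that recruits Trim28 (KAP1) and, through it, Setdb1, HP1 proteins and histone deacetylases. KRAB zinc finger genes lie in clusters formed by gene duplication, and many of the proteins silence retrotransposons and keep imprinted regions methylated. A smaller number of Zfp genes act elsewhere, on splicing, messenger RNA decay, ribosomes or ubiquitin, and share only the name and a zinc-binding fold.

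The WT group was Prkaa1fl/fl CD4Cre-neg C57BL/6 mice and the AMPK KO group carried CD4Cre, so both groups had the floxed Prkaa1 gene, which encodes the catalytic α1 subunit of the kinase AMPK. CD4Cre acts in developing T cells, so CD8 T cells of these mice lose the gene as well. The methods give female mice of 6 to 8 weeks. CD4 T cells were taken from spleen and lymph nodes, rested for 1 h and stimulated with anti-CD3 and anti-CD28 at 2 µg/ml each, for 24 h according to the labels and for 6 h according to the methods. There were 3 samples per group, which the legends call independent biological samples.

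Several facts of the whole series bear on the members. The libraries held 9575096 to 10168121 reads on genes in WT and 10515155 to 11185360 in AMPK KO, and Rn45s, the ribosomal RNA precursor, took 22.4% ± 2.21 (SD, n = 3) of them in WT and 9.89% ± 1.24 in AMPK KO. Prkaa1 measured 4.64, 5.24 and 4.86 in WT samples 1 to 3 and 4.08, 4.72 and 4.67 in AMPK KO samples 1 to 3, on the log2 scale. These groups overlapped (difference of -0.43, SE 0.25, limma adjusted p = 0.357), and the libraries read the 3′ end of transcripts, which says nothing of a deleted exon elsewhere in the gene. Xist, the RNA of the inactive X chromosome of females, was at 0.93 to 2.16 in WT and 7.55 to 7.92 in AMPK KO, and Ddx3y of the Y chromosome at 8.44 to 8.53 in WT and 6.93 to 7.28 in AMPK KO. Low Xist in WT and Ddx3y in all 6 libraries go against female mice in both groups, and sex and genotype cannot be told apart in any result below. Of the members, 1 lies on the X chromosome, Zfp275, with a difference of 0.09.

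T cell markers were present, with summed levels of 1339 to 1423 CPM in WT and 926 to 1289 CPM in AMPK KO, and all 5 matched markers of 6 listed had a lower mean in AMPK KO. Of them, Cd3e and Cd3g passed the threshold, at -0.66 and -0.93. Macrophage and monocyte markers were higher in mean in 7 of 7 cases, 4 past the threshold, with sums of 511 to 600 CPM in WT and 727 to 1384 CPM in AMPK KO. CD8 T cell markers summed to 231 to 305 CPM in WT and 321 to 376 CPM in AMPK KO, and neutrophil markers to 726 to 802 CPM and 491 to 721 CPM. Of the 4 matched neutrophil markers of 5 listed, 3 had a lower mean and 1 a higher one (Retnlg, by 0.59), with 0 past the threshold. The sums of B cell, NK cell and erythroid markers overlapped between the groups. No defining marker of these lists was at 0 in every library. These shifts move with the genotype, and their part in the differences of the members was not tested.

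By protein, 52 members carried a KRAB box and 72 did not, counted in the translated coding sequence of the GENCODE vM21 annotation. The 124 proteins held 1154 C2H2 fingers in all, with a median of 9 per protein, of 11.5 with a KRAB box and of 5.5 without. Zfp142 had the most, 36. No C2H2 finger was found in 3 members, Zfp36, which has CCCH fingers, Zfp330 and Zfp703. The transcripts were long, with a median of 3892 bases against 2858 for all tested genes.

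The sequence upstream of the members was searched for common promoter motifs. RefSeq (GRCm38.p6) gave a promoter for 102 of the 124 members, and the 250 bases before the start site were searched on both strands. The CCAAT box (CCAAT) occurred in 48.0% of members, 36.9% of promoters of tested genes and 34.5% of all promoters in the table. The GC box (GGGCGG) occurred in 52.0%, 59.0% and 32.9%, and the ETS core (CCGGAA) in 27.5%, 23.6% and 12.2%. A TATA box (TATAAA) occurred in 6.86%, 6.35% and 13%, and the palindromic NRF1 motif in 3.92%, 1.76% and 0.781%. Median GC content was 54.4% for members and 59.6% for tested genes. The sequences of 3 windows follow because they belong to members that fell in AMPK KO and hold the CCAAT box, the motif whose share among members exceeded that among tested genes by the most. Capitals mark CCAAT boxes and GC boxes, on either strand. The windows are chr17:32788288-32788537 (minus strand) for Zfp871, chr5:105876318-105876567 (plus strand) for Zfp326 and chr17:33394638-33394887 (minus strand) for Zfp101.
Zfp871: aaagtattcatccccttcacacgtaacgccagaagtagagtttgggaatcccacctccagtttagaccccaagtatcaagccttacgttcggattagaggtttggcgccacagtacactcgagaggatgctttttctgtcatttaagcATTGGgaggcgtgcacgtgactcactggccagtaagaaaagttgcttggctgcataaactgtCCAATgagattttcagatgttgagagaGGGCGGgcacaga
Zfp326: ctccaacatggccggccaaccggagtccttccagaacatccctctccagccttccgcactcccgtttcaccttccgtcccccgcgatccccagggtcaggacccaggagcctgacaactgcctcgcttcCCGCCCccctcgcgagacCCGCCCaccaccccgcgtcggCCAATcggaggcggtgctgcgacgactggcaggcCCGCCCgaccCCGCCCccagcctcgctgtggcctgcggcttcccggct
Zfp101: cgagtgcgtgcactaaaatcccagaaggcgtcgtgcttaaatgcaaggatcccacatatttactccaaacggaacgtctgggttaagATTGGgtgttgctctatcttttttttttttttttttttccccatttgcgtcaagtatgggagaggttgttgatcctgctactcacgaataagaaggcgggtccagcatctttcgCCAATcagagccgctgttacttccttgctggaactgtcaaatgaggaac
The windows of Zfp148 and Zfp260 hold none of the 5 motifs. A match is a description of letters and not a bound site.

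The study set the transcripts of AMPK KO cells against those of WT cells to ask how AMPK acts on the checkpoint receptor PD-1. The comparison of AMPK KO with WT called 7 of the 124 members, all lower in AMPK KO, by limma with Benjamini-Hochberg adjustment over all 11279 genes. This is 5.65% of members, and the share of all tested genes called was also 5.65%, so the share of calls was at the background. Among tested genes with a mean of at least 3 it was 7.06%. By direction, 0 members were higher and 7 lower, against 2.54% of tested genes higher and 3.1% lower. Among tested genes with a mean of at least 3 the shares by direction were 2.95% and 4.11%. At an unadjusted p below 0.05, 2 members (1.61%) were higher (Zfp703 and Zfp52) and 18 (14.5%) lower. These shares were 10.6% and 10.7% over all tested genes, and 11% and 13.1% over those with a mean of at least 3. In bulk RNA, fewer cells of a type and less RNA per cell cannot be told apart. The exact permutation test of 3 against 3 samples cannot go below p = 0.1, and all 7 called members reached that value.

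Zfp148, a Krüppel-type factor that binds GC-rich elements and can repress or activate, measured 6.94, 6.70 and 7.10 in WT and 5.92, 6.10 and 5.94 in AMPK KO. Every AMPK KO sample lay below every WT sample. The log2 difference was -0.93 (SE 0.16, adjusted p = 0.0052), and each library held 707 to 1208 of its reads. Zfp148 lies at chr16:33380836-33504363 (GRCm38), has 4 fingers and no KRAB box, and its 9830-base transcript is among the longer ones.

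Zfp871, a KRAB member with 15 fingers, measured 8.04, 7.84 and 8.04 in WT and 7.25, 6.95 and 7.34 in AMPK KO. It had the second highest mean of the members, and its groups did not overlap. The difference was -0.79 (SE 0.15, adjusted p = 0.00777), from 1321 to 2410 reads per library. Zfp260, a factor with 12 fingers known from the heart, measured 6.70, 6.32 and 6.36 in WT and 5.19, 5.75 and 5.53 in AMPK KO. It differed by -0.97 (SE 0.19, adjusted p = 0.00971), and an annotated antisense gene, Gm23368, overlaps it.

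Zfp326, which joins RNA polymerase II complexes to splicing, measured 7.20, 6.76 and 7.22 in WT and 6.27, 6.26 and 6.31 in AMPK KO. The AMPK KO samples lay close together (SD 0.03), below all WT samples, and the difference was -0.78 (SE 0.16, adjusted p = 0.0138). Zfp236, with 30 fingers, measured 4.68, 4.78 and 4.88 in WT and 3.90, 3.82 and 3.88 in AMPK KO. It differed by -0.91 (SE 0.23, adjusted p = 0.034) from 141 to 265 reads per library, and 2 antisense genes overlap it.

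The remaining called members, Zfp101 and Zfp87, carry KRAB boxes. Zfp101, with 12 fingers, measured 3.843, 4.138 and 4.446 in WT and 3.001, 3.186 and 2.934 in AMPK KO, a difference of -1.10 (SE 0.29, adjusted p = 0.0414) from 79 to 184 reads. Zfp87, with 15 fingers, measured 5.176, 4.771 and 5.272 in WT and 4.002, 4.591 and 3.785 in AMPK KO, a difference of -0.95 (SE 0.26, adjusted p = 0.047) from 152 to 333 reads. For both, the groups did not overlap. As a ratio of log2 means turned back to a linear scale, AMPK KO was between 0.466 of WT for Zfp101 and 0.582 of WT for Zfp326.

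**Figure D1:**
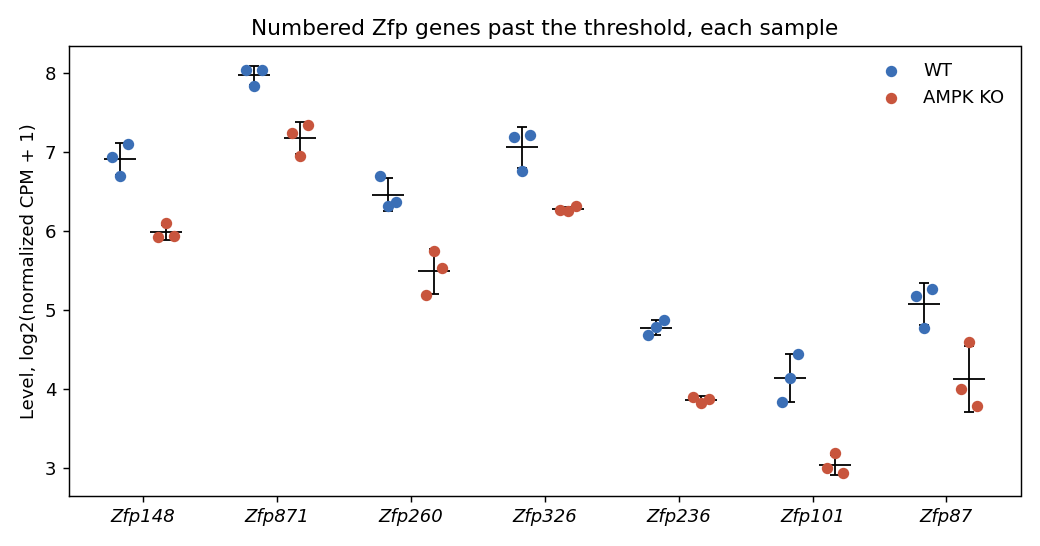
Level of the 7 called members in each sample, as log2(normalized CPM + 1), with points for samples and bars for mean and SD (n = 3). In each gene all 3 AMPK KO samples lie below all 3 WT samples.

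Leaving out a library changed these calls. All 7 members lost the threshold without WT sample 1 and without WT sample 3, where 0 lower calls remained. Calls over all genes, in either direction, moved as well, from 637 with all libraries to 127 and 140 in these fits. Without AMPK KO sample 1 there were 2 lower members among 172 calls over all genes, and without AMPK KO sample 2 there were 10 among 1246. Without AMPK KO sample 3 there were 4 among 464, and without WT sample 2 there were 5 among 728. The differences themselves kept their direction in all 16 alternatives tried for each of the 7.

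Zfp703 came nearest to the threshold among members with a higher mean. A corepressor of the NLZ family with no C2H2 finger match, it measured 6.63, 5.90 and 6.43 in WT and 6.96, 7.28 and 6.81 in AMPK KO. It was 0.70 higher (SE 0.20) with an adjusted p of 0.0517, with no overlap, and it passed the threshold in 5 of the 16 alternatives. Zfp62, with 25 fingers and picked after its values were seen, was the next lower member at -0.87 (adjusted p = 0.0556).

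The other largest rises without overlap did not pass the threshold. Zfp52, a KRAB member, measured 4.53, 4.17 and 4.31 in WT and 5.09, 4.83 and 4.84 in AMPK KO (difference 0.58, adjusted p = 0.149). Zfp444 differed by 0.54 (adjusted p = 0.293), Zfp26 by 0.41 (adjusted p = 0.338) and Zfp706 by 0.34 (adjusted p = 0.298). In all, groups did not overlap in 7 members with a higher and 24 with a lower mean in AMPK KO, 5.65% and 19.4% of members and 25% together. Over all tested genes these shares were 11.6% and 14%, 25.6% together, and over tested genes with a mean of at least 3 they were 11.6% and 16.5%, 28.1% together.

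Most members leaned low without passing the test. The mean was lower in AMPK KO for 80 of 124 members (64.5%), against 48.8% of all tested genes and 51.6% of those with a mean of at least 3. The median difference of the members was -0.18 (quartiles -0.41 and 0.07, range -1.10 to 0.80), against 0.02 for all tested genes and -0.01 for other genes with a mean of at least 3. The upper end of that range is Zfp35, picked after its values were seen, whose WT samples spread from 2.26 to 4.08. The median standard error of a single member's difference was 0.263.

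**Figure D2:**
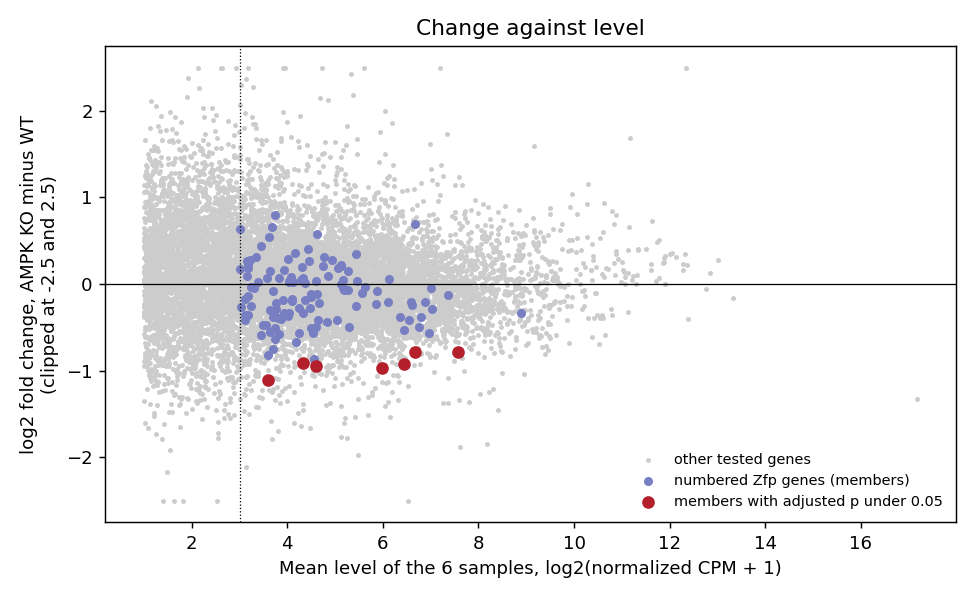
Difference between AMPK KO and WT (log2) against the mean level of the 6 samples, for all tested genes (grey), the members (blue) and the 7 called members (red), with differences clipped at 2.5 either side. All red points lie below 0, and the dotted line marks the mean of 3 that chose the members.

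Medians over the members were also taken in each library. The median over members of the value minus the gene's own mean was 0.08, 0.11 and 0.08 in WT samples 1 to 3 and -0.07, -0.17 and -0.02 in AMPK KO samples 1 to 3, which do not overlap. AMPK KO sample 2 was the lowest. This library also had the highest level of 6 of the 7 macrophage and monocyte markers, among them C1qa at 8.04 against 6.92 and 6.42 in the other AMPK KO samples. The exception, Lyz2, was at 3.31 there against 4.30 and 4.41, and the part of these levels in its member median was not tested. Without this library the median difference was -0.15. The same medians for other genes with a mean of at least 3 ran from 0.02 to 0.03 in WT and from -0.01 to 0.00 in AMPK KO. For other genes at levels of 3 to 6 with transcripts longer than the median, the set most like the members, they were 0.045, 0.049 and 0.036 in WT and -0.001, -0.093 and 0.023 in AMPK KO. There too the groups did not overlap and AMPK KO sample 2 was the lowest. Members held 0.612% ± 0.010 (SD, n = 3) of reads outside Rn45s in WT and 0.492% ± 0.024 in AMPK KO, and 0.475% ± 0.010 and 0.443% ± 0.016 of all reads on genes.

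**Figure D3:**
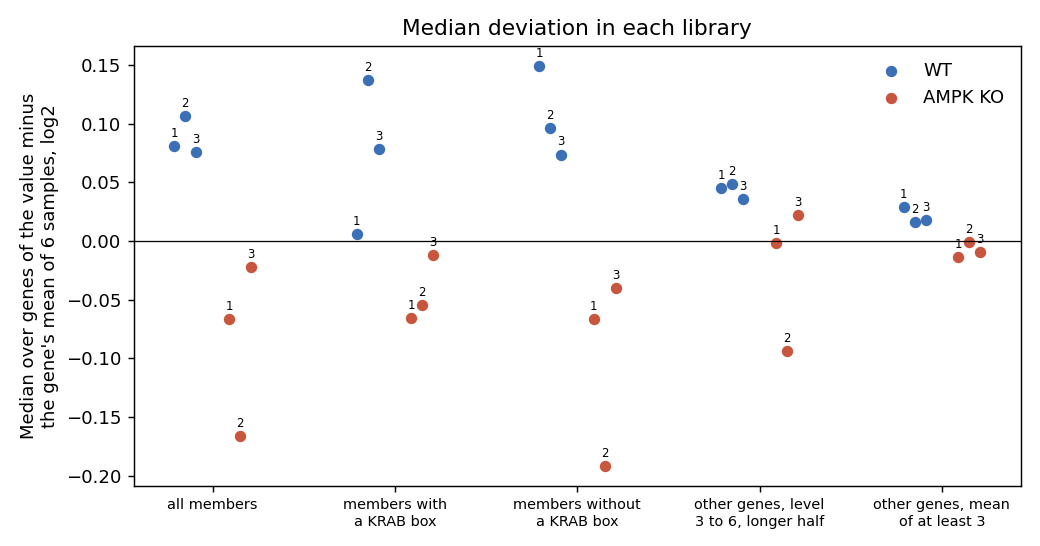
Median over genes of the log2 value minus the gene's mean over the 6 samples, in each library (points numbered by sample), for all members, KRAB members, members without a KRAB box and 2 sets of other genes. For all members, WT samples lie at 0.08 to 0.11 and AMPK KO samples at -0.17 to -0.02.

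The members had long transcripts. Their median level was 4.32, against 4.255 for all tested genes and 5.10 for other genes with a mean of at least 3. They were therefore set beside other genes of like level and length. Between levels of 3 and 4 the median difference was -0.20 for 46 members and 0.08 for 1768 other genes. Between 4 and 5 it was -0.13 for 40 members and 0.00 for 1955 other genes. Between 5 and 6 the values were -0.04 for 19 members and -0.04 for 1788 others, with no gap. At 6 and over they were -0.33 for 19 members and -0.06 for 2322 others. From the lowest level class to the highest, 63.0%, 55%, 63.2% and 89.5% (17 of 19) of members had a lower mean in AMPK KO. Among other genes these shares were 44.2%, 49.6%, 54.4% and 56.2%.

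Length moved with the difference as well. In the shortest of 4 equal length classes of the transcripts the median was -0.17 for 11 members and 0.13 for 1967 other genes, and in the second class -0.18 for 29 members and 0.02 for 1948 others. In the third class it was -0.06 for 40 members and -0.05 for 1937 others, and in the longest it was -0.30 for 44 members and -0.16 for 1934 others. Between levels of 3 and 5 and among transcripts longer than the median of 2930 bases, the median was -0.11 for 59 members and -0.04 for 1797 other genes, and a lower mean was found in 54.2% of these members and 53.2% of these other genes. At 5 and over among these longer transcripts, it was -0.24 for 25 members and -0.16 for 2074 others, with a lower mean in 76.0% and 67.3%. Within members, the Spearman correlation of the difference was -0.16 with transcript length and -0.13 with level over 124 genes, which share the same libraries, and over 7786 other genes it was -0.26 and -0.11. After each library was corrected for transcript length by loess, 77 of the 123 members with a length in that fit had a lower mean, the median was -0.14, and 6 were called lower, without Zfp236, where calls over all genes were 557 in place of 637. The distance of that median from the median of all tested genes was -0.15, against -0.19 without the correction. The part of level in the lean of the members was not tested.

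**Figure D4:**
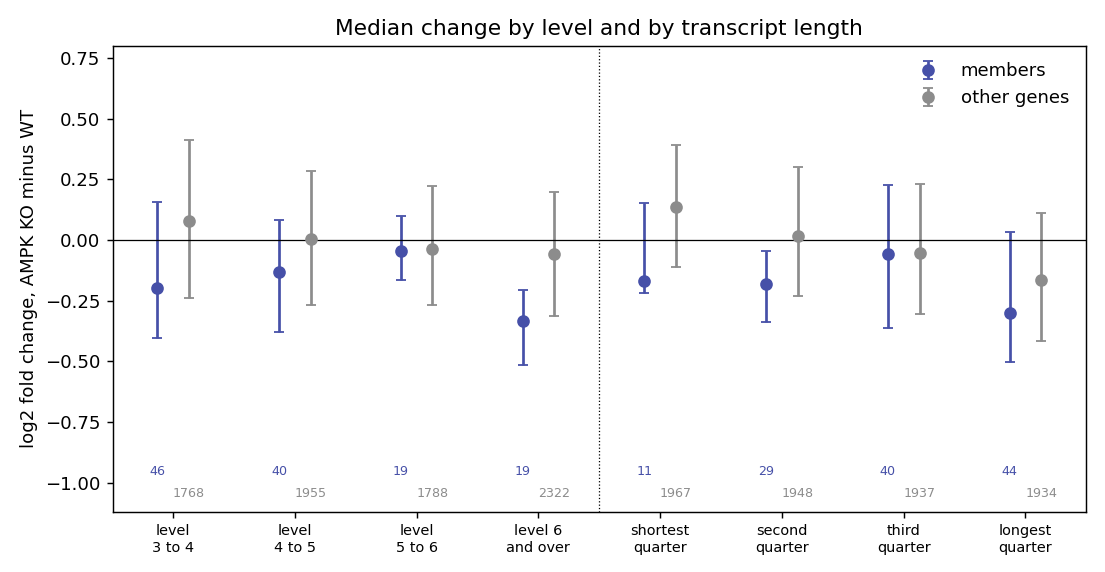
Median difference (points) with quartiles (bars) between AMPK KO and WT, log2, for members and other genes with a mean of at least 3 by level and by transcript length, with the number of genes printed below. Members lie lower than other genes in the first 2 and the last level classes and in the 2 shortest and the longest length classes, and level with them at 5 to 6 and in the third length class.

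With a KRAB box 3 of 52 members were called lower and the median was -0.16, and without one 4 of 72 were called lower and the median was -0.19. Groups did not overlap, with a lower mean in AMPK KO, in 6 of the 52 (11.5%) and 18 of the 72 (25%), and 5 (9.62%) and 13 (18.1%) were lower at an unadjusted p below 0.05. Over tested genes with a mean of at least 3, these shares were 16.5% without overlap and 13.1% at the unadjusted p. The median level was 4.05 with a KRAB box and 4.54 without. The difference between members with and without a KRAB box was not tested. By finger number, calls were made for 1 of 11 members with 0 to 1 fingers, 1 of 28 with 2 to 5, 0 of 45 with 6 to 11, 4 of 23 with 12 to 15 and 1 of 17 with 16 or more, against 7.06% of tested genes with a mean of at least 3. The medians for 0 to 1, 2 to 5, 6 to 11, 12 to 15 and 16 or more fingers were -0.04, -0.19, -0.11, -0.21 and -0.28. An annotated antisense gene overlapped 49 members, whose median was -0.18, against -0.17 for the 75 without, and whether counting used strand is not given in the sources used here.

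**Figure D5:**
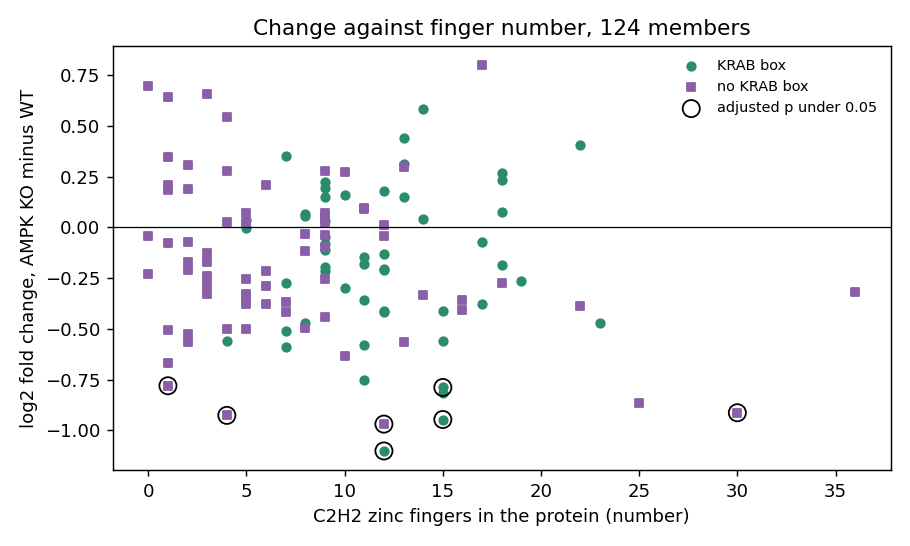
Difference between AMPK KO and WT (log2) against the number of C2H2 fingers for the 124 members, with circles for a KRAB box and squares for none, and the 7 called members ringed. The ringed points range from 1 finger (Zfp326) to 30 fingers (Zfp236).

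The role lists are read against the 7.06% of tested genes with a mean of at least 3 that were called and the 51.6% that had a lower mean. Among members with a known role in RNA, ribosomes or ubiquitin, 1 of 12 passed the threshold, Zfp326, and 8 had a lower mean (median -0.10). Zfp36 (tristetraprolin), which binds AU-rich elements and drives decay of cytokine messages, measured 6.996, 6.924 and 7.144 in WT and 7.092, 6.962 and 6.876 in AMPK KO. These ranges overlap, and the difference was -0.04 (SE 0.15, adjusted p = 0.897). Zfp598, the ubiquitin ligase of collided ribosomes, differed by 0.21 (adjusted p = 0.649). Zfp622, a ribosome biogenesis factor, differed by -0.12 (adjusted p = 0.711), and Zfp638, which takes part in silencing of unintegrated retroviral DNA, by -0.21 (adjusted p = 0.445) without overlap.

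Of the KRAB members with a known target, 3 of 3 had a lower mean and 0 passed the threshold (unadjusted p below 0.05 in 0). Zfp445, a guardian of imprinted regions, measured 6.800, 6.453 and 6.853 in WT and 6.611, 6.371 and 6.495 in AMPK KO (difference -0.21, adjusted p = 0.495). Zfp809, which silences retroviruses, differed by -0.28 (adjusted p = 0.587), and Zfp932, which acts on endogenous retroviruses, by -0.41 (adjusted p = 0.547).

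Among the 18 members that regulate transcription, 1 passed the threshold, Zfp148 (5.56%), and 13 had a lower mean (72.2%), with a median of -0.35. The shares over tested genes with a mean of at least 3 were 7.06% and 51.6%, so the share of calls was not above the background. Zfp292, the member with the highest values, which are not per length, measured 9.05, 9.04 and 9.06 in WT and 8.77, 8.67 and 8.71 in AMPK KO. Its groups did not overlap, from 4354 to 5245 reads per library, yet the difference of -0.33 had an adjusted p of 0.143. Zfp318, needed for the choice of IgD over IgM messages in B cells, differed by -0.53 (adjusted p = 0.0826), and Zfp131, which has a BTB domain, by -0.50 (adjusted p = 0.0803). Zfp644, a partner of G9a and GLP, differed by -0.42 (adjusted p = 0.142), Zfp217, a corepressor, by -0.49 (adjusted p = 0.223) and Zfp335, needed for maturation of T cells, by -0.56 (adjusted p = 0.295). The list also holds Zfp703, given above at 0.70, and 4 other members with a higher mean, of which Zfp263 differed most, by 0.28 (adjusted p = 0.546).

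Position in the genome was read for 8 clusters of at least 3 members no more than 500000 bases apart, which hold 35 members. Among tested genes with a mean of at least 3, 7.06% were called and 51.6% had a lower mean, and no cluster was tested against these shares. At chr17:32765496-33631779, all 5 members (Zfp871, Zfp472, Zfp952, Zfp101 and Zfp414) had a lower mean, 2 of them called, with a median of -0.41. The 9 KRAB members at chr17:21008903-22867134 had 6 lower means, 0 calls and a median of -0.18. At chr13:67312998-67553830, 3 of 4 were lower in mean, 1 of them called, Zfp87. The 3 members at chr18:23954692-24020810 (Zfp397, Zfp35 and Zfp191) had 2 higher means and a median of 0.07. In the other 4 clusters, on chromosomes 6, 7 and 8, the medians were -0.21 to -0.15, with 1 call, Zfp260. Neighbouring paralogs are similar in sequence, and the counting may have split reads between them.

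The corepressor and HUSH genes, which KRAB proteins work through, gave 1 lower call among 33 tested, Dnmt3a, a de novo DNA methyltransferase, at -0.80 (SE 0.17, adjusted p = 0.0159). This is 3.03% of the list, against 5.65% of all tested genes called and 3.1% called lower, so the share of calls was not above the background. The median over the 33 was -0.14, and 20 had a lower mean. Trim28 measured 7.44, 7.21 and 7.48 in WT and 7.07, 7.42 and 7.23 in AMPK KO, a difference of -0.14 (adjusted p = 0.642). Setdb1, its histone methyltransferase, differed by 0.25 (adjusted p = 0.411) and Chd3 by -0.46 (adjusted p = 0.0574).

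Other zinc finger families are given at the same minimum mean of 3, at which 7.06% of tested genes were called and 51.6% had a lower mean. At an unadjusted p below 0.05, 11% of tested genes with that mean were higher and 13.1% lower. Of 21 Zbtb genes, 16 had a lower mean (median -0.29) and 1 was called, Zbtb11 at -0.80. Of 7 Zscan and Zkscan genes, limma called 0, with 1 higher and 1 lower at an unadjusted p below 0.05, and 4 had a lower mean (median -0.18). Of 16 Klf and Sp genes, 8 had a lower mean (median 0.09), and Klf3 was called lower at -1.21 and Klf4 higher at 0.76. All 5 Ikzf genes, lymphoid transcription factors, had a lower mean (median -0.46), with 1 called, Ikzf1 at -0.58. The 13 Zfp genes with a letter after the number, which the naming rule leaves out, all had a lower mean (median -0.39), with 0 limma calls and with 4 lower and 0 higher at an unadjusted p below 0.05. A lower mean was thus also the more frequent direction among the Zbtb, Ikzf and lettered Zfp genes, and no difference between these families and the members was tested.

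At the threshold on level, the members just inside were Zfp790 at a mean of 3.01, Zfp395 at 3.02 and Zfp51 at 3.04. Just outside lay Zfp771 at 2.97, Zfp959 at 2.97 and Zfp963 at 2.95. Of the 120 tested genes of the same name form below the threshold, 1 (0.833%) was called, higher, and the median difference was -0.00 with 60 lower means. Over all tested genes 5.65% were called, with 2.54% called higher. The median level of the 120 genes was 2.04 and their median SD in WT 0.48, against 4.255 and 0.28 over all tested genes.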

How the data were processed

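Samples of CD4 T cells (3 WT, 3 AMPK KO, grouped by their labels) were sequenced as Lexogen QuantSeq libraries from 500 ng of total RNA. For each of 23282 gene lines the authors deposited a log2 value, log2(CPM + 1) after TMM scaling. The submitters' processing notes name Bowtie2, bedtools and mm10, and the annotation is not given in the sources used here. Values up to 100 reads were within 0.1 of whole reads in 100% of cases, from which depth was recovered.

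Genes with a mean of at least 1 were tested with limma 3.58.1 (lmFit and eBayes with trend) in R 4.3.3, two-sided, with Benjamini-Hochberg adjustment and a threshold of 0.05. The spread is that between the 3 samples of each group. Genes were matched to GENCODE vM21 (GRCm38, the build of mm10), 1 member (Zfp191) through its current symbol. Fingers were counted as cysteine, 2 to 4 residues, cysteine, 12 residues, histidine, 3 to 5 residues, histidine, in the translated GENCODE coding sequence, and a KRAB box by at least 15 identities to a 37-residue consensus. The design had named RefSeq proteins, which were not used here. The gene model was tested on simulated data.

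Named genes were the called members, the 5 largest rises and falls without overlap, the 5 highest means, 3 genes on each side of the level threshold, and the role lists. Members and lists were chosen with earlier results of these data known. Alternatives were other normalizations, filters, pseudocounts, spread estimates and thresholds, a replicate block, leaving out each library, voom on recovered reads, corrections for length and GC content (the last added after seeing the data) and other member rules.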

Additional observations from a re-analysis of the deposited data

How the results depend on the processing

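The median difference of the members lay between -0.24 and -0.13 over all 19 alternatives, and its distance from the median of all tested genes between -0.22 and -0.15, both below 0 throughout. The value of -0.24 came from scaling to reads outside Rn45s. Leaving out a library in turn gave 0 to 10 lower calls, 0 to 1 higher calls, 127 to 1246 calls over all genes, medians of -0.18 to -0.15 and 78 to 82 lower means. Lower calls fell to 4 with no filter, where calls over all genes were 308. They rose to 18 at an unadjusted p below 0.05, where higher calls were 2 and calls over all genes were 2405. There was 1 higher call, Zfp703, with quantile normalization, robust spread, a pseudocount of 5, GC correction and an adjusted p below 0.1. With members of a mean of at least 4, 51 of 78 had a lower mean. With the replicate block there were 0 lower calls and 102 calls over all genes, against 637 without it. Deviations of same-numbered samples correlated at -0.08, -0.32 and -0.16, none of them positive. With 3 samples per group, these values cannot show whether samples were prepared in pairs. Some differences near 0 changed sign: Zfp36 was 0.017 with quantile normalization, Zfp219, Zfp687 and Zfp827 were -0.019, -0.045 and -0.014 when scaled to reads outside Rn45s, Zfp687 was -0.030 with quantile normalization and Zfp592 was 0.11 with length correction. With a library left out in turn, Zfp36 ran from -0.10 to 0.017, Zfp593 from -0.13 to 0.45, Zfp830 from -0.25 to 0.084, Zfp219 from -0.13 to 0.20, Zfp410 from -0.66 to 0.002, Zfp592 from -0.18 to 0.06, Zfp687 from -0.15 to 0.21 and Zfp827 from -0.028 to 0.16. The cause of these changes was not tested. Members had 23 to 5245 reads per library, and how far depth limits their calls was not tested.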
